A study of Oryctolagus cuniculus with 6 samples.

Results

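The transcripts of blood vessel and lymphatic vessel cells were followed in the injured facial nerve of rabbits with and without an I-125 seed. The set holds 37 genes, chosen by symbol for their known roles in endothelial identity, angiogenic signaling, vessel barrier, vessel activation and lymphatic vessels. Of these, 35 were among the 17396 genes of the files, and EGFL7 and APLN were not analysed here. All 35 passed the filter on low counts, and the smallest count of any of them in a library was 26. The 6 libraries came from facial nerve tissue of wild type male Japanese white rabbits of 3 to 4 months, with 3 libraries for the FNI group and 3 for FNI+I-125. In both groups the main trunk of the facial nerve had been cut, and the nerve was harvested on day 14. In the FNI+I-125 group, a seed of 0.8 mCi had been placed near the nerve when the skin was closed, and the FNI group received none. No library of uninjured nerve and none with an inactive seed was analysed here, so the seed as an implant and its radiation cannot be told apart.

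Endothelial cells line all vessels. The vessels inside a nerve form the blood-nerve barrier through tight junctions and efflux pumps, and leukocytes reach injured tissue across activated endothelium that displays selectins. VEGF ligands act on KDR, while FLT1 binds VEGF and limits its signal. ANGPT1 stabilizes vessels through the receptor TEK, and ANGPT2 competes with it. After a nerve is cut, new vessels bridge the gap and guide Schwann cells. Lymphatic endothelium is set apart by the transcription factor PROX1.

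The tissue pieces differed in composition, and these differences stood beside every result given here. All 10 Schwann cell genes listed as markers were counted, and all 10 had a negative log2 fold change in the FNI+I-125 group. Their summed level ran from 4460 to 38663 CPM in the FNI libraries and from 854 to 4063 CPM in the FNI+I-125 libraries, with the highest value in FNI replicate 3. Of 12 leukocyte markers, 11 had a positive log2 fold change, with summed levels from 186 to 976 CPM against 1683 to 2623 CPM. Skeletal muscle transcripts reached 4817 and 4058 CPM in FNI+I-125 replicates 1 and 2 and at no more than 77.5 CPM in the other libraries. Salivary gland transcripts reached 48898 CPM in FNI replicate 2. Below, 3 values of a gene always stand in the order of replicates 1, 2 and 3, "injury alone" means the FNI group and "with the seed" the FNI+I-125 group, and CPM are counts per 1e6 of the scaled library. Total counts ran from 16031151 to 16798012 per library.

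The seed group showed a mixed picture for vessel genes. Endothelial identity genes stood at similar or lower levels, the barrier genes CLDN5 and ABCB1 had lower means, and SELE, the selectin of activated endothelium, stood at 25.8 ± 13.9 CPM against 4.69 ± 2.81 CPM (SD, n = 3 each). At an adjusted p under 0.05 and a log2 fold change of at least 1.5 in size, 0 of the 35 genes were higher and 0 were lower in edgeR's quasi-likelihood test, with a background of 0% in both directions. The adjusted p of the 35 genes ran from 0.280 to 0.985 in this test. At an unadjusted p under 0.05, 1 gene was higher and 8 were lower. The background over all 14003 genes tested was 9.23% higher and 7.73% lower, and the genes of the set stood at 2.86% and 22.9%. Fewer vessel cells and less RNA per vessel cell cannot be told apart in such tissue.

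DESeq2 passed SELE alone as higher and 0 genes as lower at an adjusted p under 0.05 and the same fold change criterion, where the background was 1.76% higher and 1.22% lower. MFSD2A, with a log2 fold change of -1.92 in DESeq2, received no p-value there and could not be called. Without the fold change criterion, DESeq2 also passed 4 lower genes, namely FLT1 (adjusted p = 0.0233), CLDN5 (0.0263), ESAM (0.0410) and ABCB1 (0.0444), with a background of 3.83% higher and 2.84% lower. In limma-voom, 0 genes of the set passed, and 1 higher and 8 lower genes had an unadjusted p under 0.05. The limma-voom background at this p was 9% higher and 6.44% lower.

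**Figure D1:**
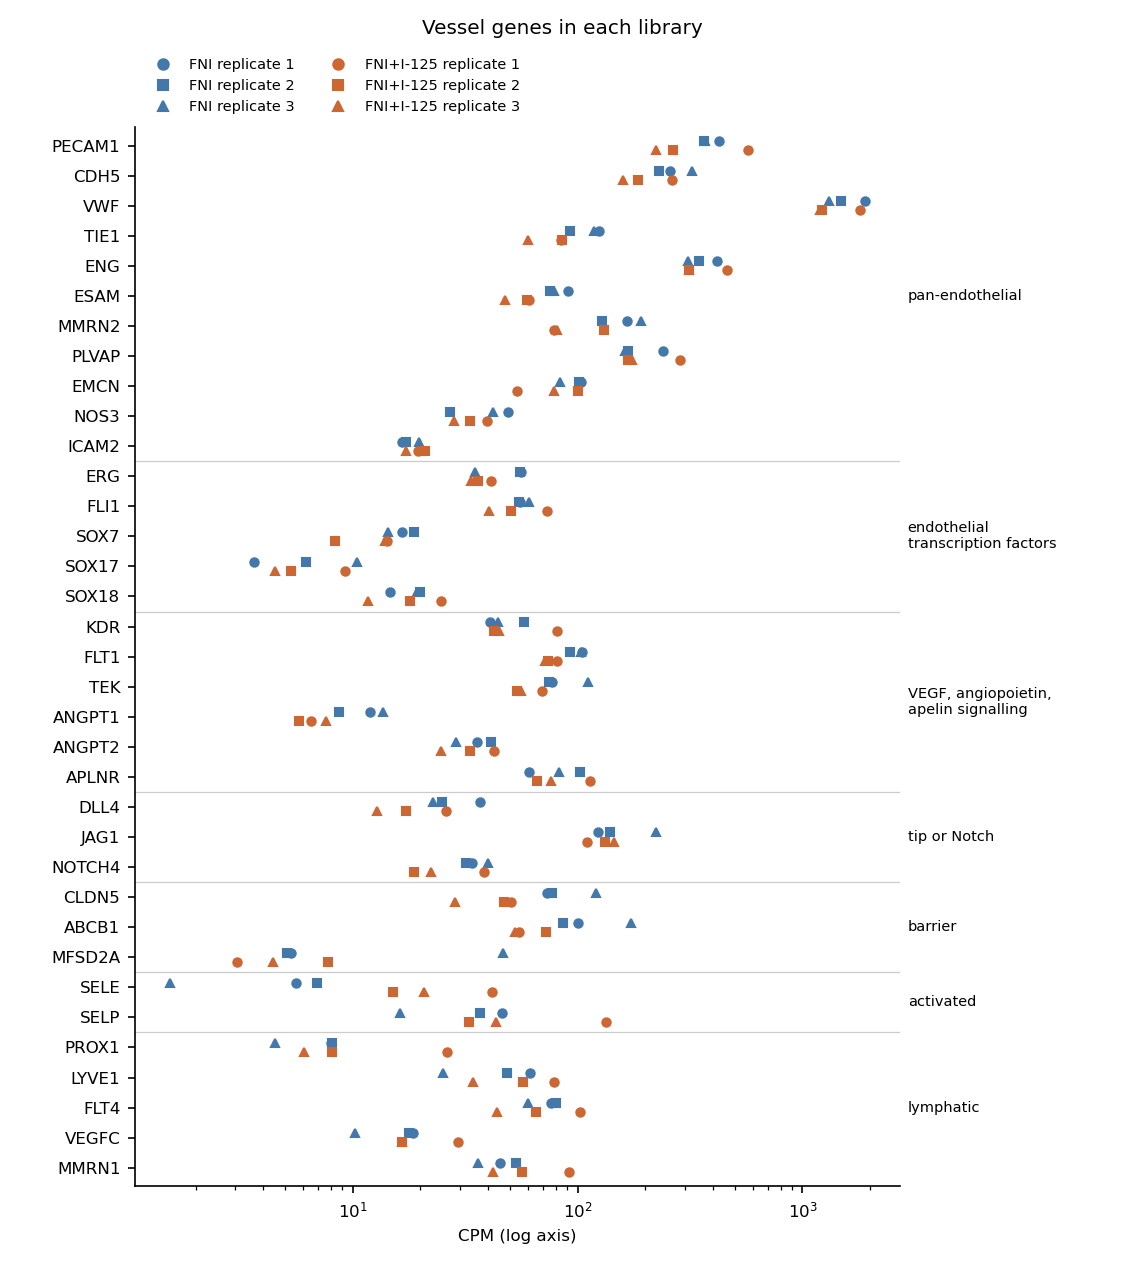
CPM of the 35 vessel genes in each of the 6 libraries, on a log axis, with FNI libraries in blue and FNI+I-125 libraries in orange and a marker shape for each replicate number. The 3 orange points of SELE lie right of the 3 blue points, and for TIE1, ESAM, SOX7, FLT1, TEK, ANGPT1, CLDN5 and ABCB1 they lie left of them.

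The groups did not overlap for 9 genes. SELE was higher in every FNI+I-125 library than in every FNI library. TIE1, ESAM, SOX7, FLT1, TEK, ANGPT1, CLDN5 and ABCB1 were lower. This was 2.86% and 22.9% of the set, beside a background of 14.8% higher and 12.3% lower over all genes tested. A two-sided exact permutation test on log2(CPM + 1) gave p = 0.1 for each of these 9 genes, the smallest p that 3 libraries against 3 allow. Libraries within a group differed as well. FNI+I-125 replicate 1 held the highest value of 15 of the 35 genes, and FNI+I-125 replicate 3 held the highest of 0 and the lowest of 14. Without FNI+I-125 replicate 1, 14 genes were lower without overlap, with a background of 16.1%, and the additions were CDH5, DLL4, FLI1, NOTCH4, PECAM1 and VWF. Without FNI replicate 1, 2 genes were higher without overlap, with a background of 19.4%, and without FNI+I-125 replicate 3 there were 3, with a background of 20.8%. At an unadjusted p under 0.05, 5 genes were lower without FNI replicate 1, with a background of 7.43%. Without FNI+I-125 replicate 3, 4 were lower and 2 were higher, with backgrounds of 6.63% and 8.19%.

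**Figure D2:**
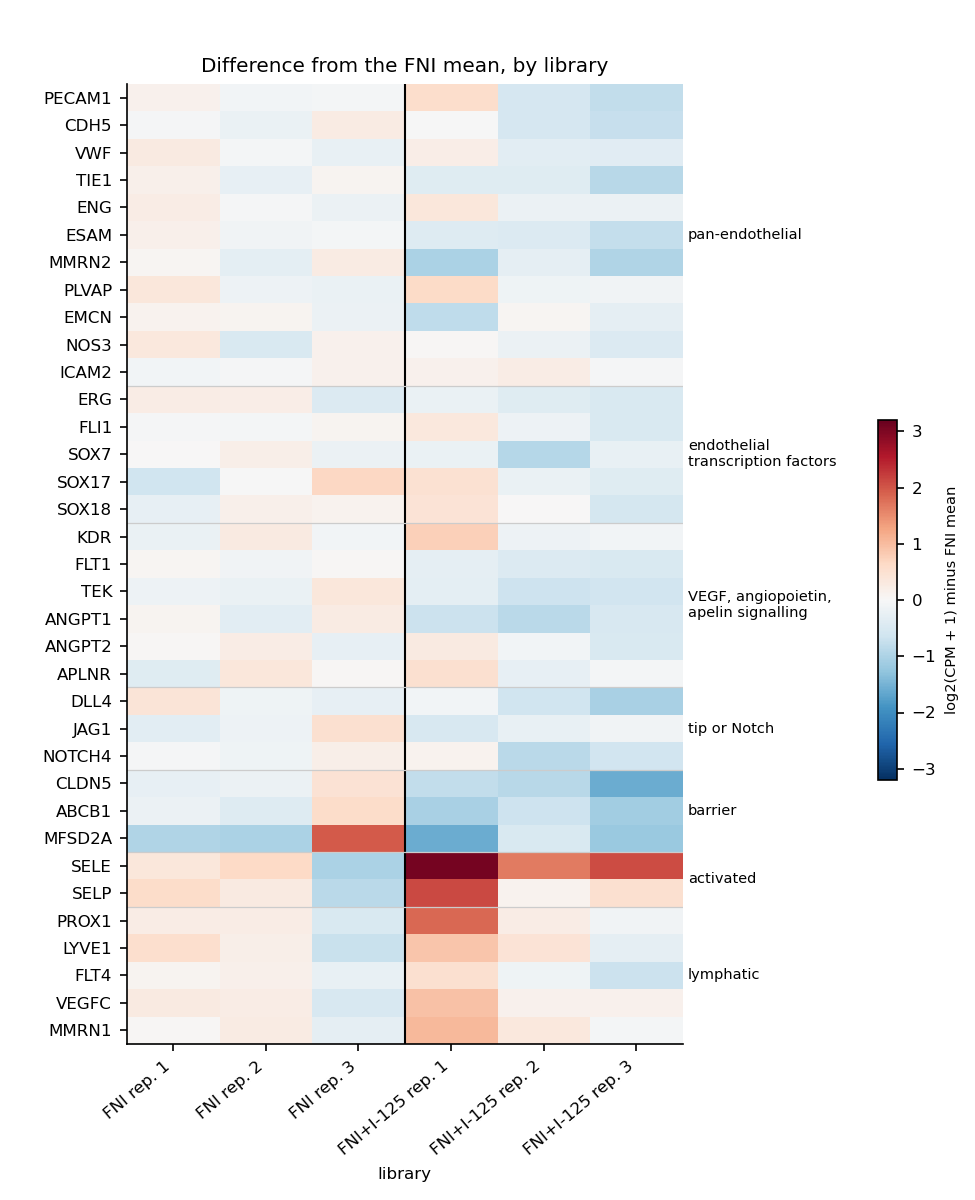
Difference of log2(CPM + 1) from the mean of the FNI libraries, for each vessel gene (rows, by role) and library (columns), with red for higher and blue for lower values. FNI+I-125 replicate 1 is red for SELE, SELP and the 5 lymphatic genes, FNI replicate 3 is red for MFSD2A, and FNI+I-125 replicate 3 is the lowest library for 14 of the 35 genes.

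Of the 11 pan-endothelial genes, 3 were lower at an unadjusted p under 0.05 and 0 were higher, beside 7.73% and 9.23% over all genes tested. ESAM, an adhesion molecule of endothelial tight junctions, had 90.9, 75.1 and 78.3 CPM after injury alone and 60.9, 59.3 and 47.4 CPM with the seed. Its log2 fold change was -0.54 (standard error 0.15, 95% interval -0.90 to -0.18). TIE1, an orphan receptor that modulates TEK, had 124, 92.8 and 119 CPM against 84.1, 85.1 and 59.9 CPM, a log2 fold change of -0.55 (standard error 0.19). For both genes every FNI+I-125 library lay under the lowest FNI library. MMRN2, a matrix glycoprotein made by endothelium, had 166, 128 and 191 CPM against 78.3, 130.5 and 81.2 CPM, a log2 fold change of -0.74 (standard error 0.26). FNI+I-125 replicate 2 lay above FNI replicate 2 for MMRN2, so the groups overlapped. The adjusted p was 0.280 for each of the 3 genes in edgeR's quasi-likelihood test.

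The other 8 pan-endothelial genes had log2 fold changes between -0.42 and 0.14, and their groups overlapped. PECAM1, the junctional molecule CD31 that leukocytes and platelets also carry, had 425, 365 and 368 CPM after injury alone and 573, 265 and 223 CPM with the seed. The 3 FNI libraries lay close together, and the FNI+I-125 libraries fell on both sides of them. Its log2 fold change of -0.13 had a 95% interval from -1.04 to 0.79. Without FNI+I-125 replicate 1 it was -0.66, and without FNI+I-125 replicate 3 it was 0.11. CDH5, the VE-cadherin of adherens junctions, had 259, 229 and 322 CPM against 263, 185 and 159 CPM, with a log2 fold change of -0.42 (standard error 0.24). VWF, the clotting glycoprotein that endothelium stores and releases, had 1902, 1483 and 1312 CPM against 1797, 1222 and 1198 CPM. In both genes FNI+I-125 replicate 1 lay among the FNI libraries and the other seed libraries lay below them.

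The 95% intervals of the remaining 5 genes included 0. EMCN, a sialomucin of capillaries and veins, stood at -0.32 (95% interval -0.90 to 0.27), and NOS3, the endothelial nitric oxide synthase, at -0.23 (-0.85 to 0.39). ENG, a co-receptor for TGF-beta ligands, stood at 0.02 (-0.51 to 0.55) and turned negative when scaled by upper quartile or by library size alone. PLVAP, which forms the diaphragms of fenestrated endothelium, had 239.6, 167 and 162 CPM against 284, 168 and 174 CPM. Its log2 fold change was 0.14, or -0.15 without FNI+I-125 replicate 1. ICAM2, an adhesion molecule of resting endothelium, stood at 0.11 (-0.26 to 0.48).

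**Figure D3:**
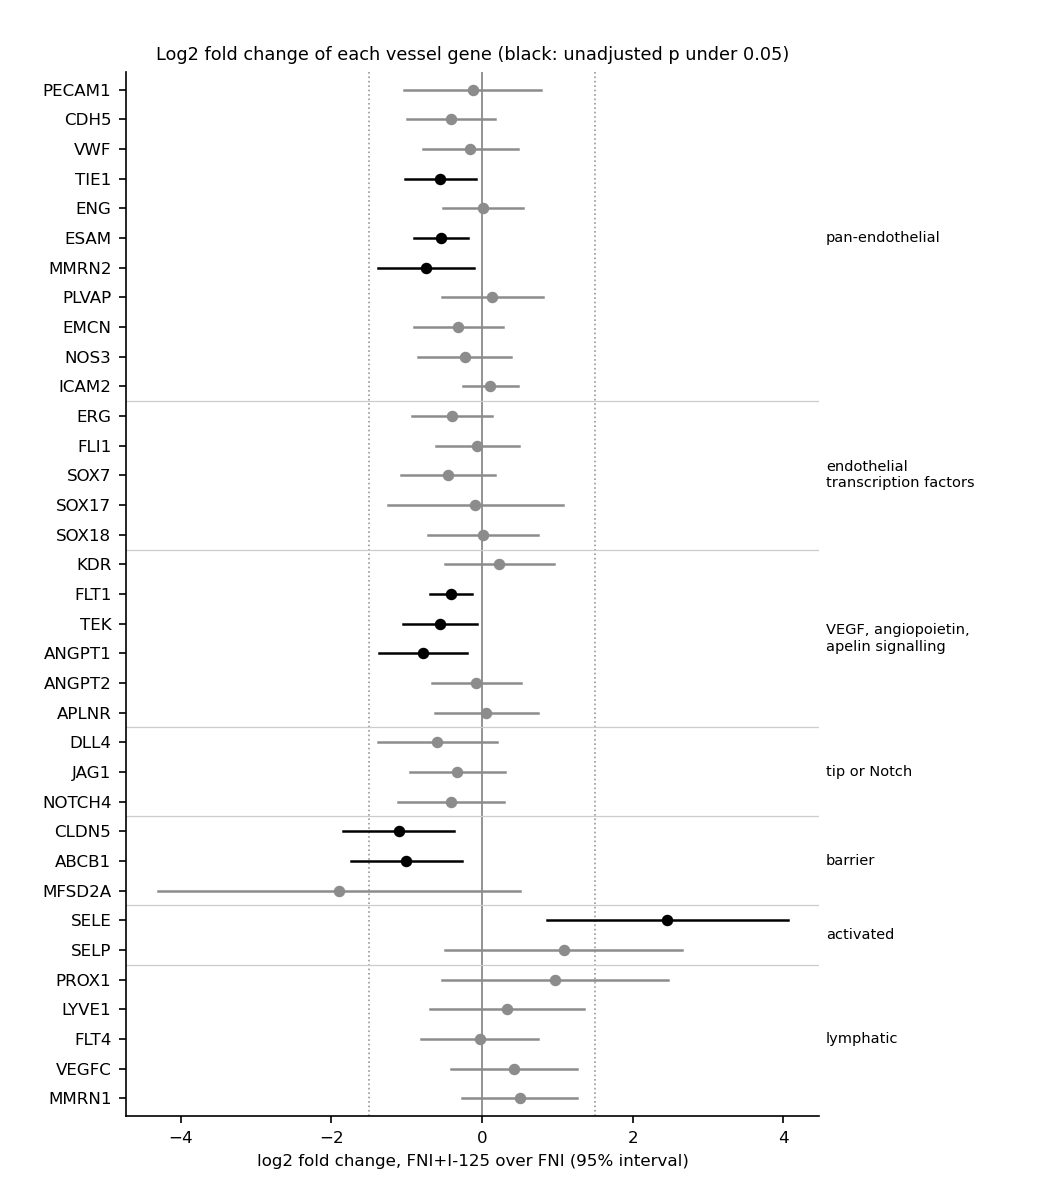
Log2 fold change of the FNI+I-125 group over the FNI group for the 35 vessel genes, with lines for the 95% interval of edgeR's quasi-likelihood fit and dotted lines at the criterion of 1.5. Black points mark the 9 genes whose unadjusted p was under 0.05, and SELE at 2.46 is the only point beyond the dotted line on the right, with MFSD2A at -1.90 beyond the one on the left.

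Endothelial transcription factors came next. ERG and FLI1 are ETS factors, and SOX7, SOX17 and SOX18 form the SOXF family that directs vessel identity. Of these 5 genes, 0 had an unadjusted p under 0.05 in edgeR's test, beside 9.23% higher and 7.73% lower over all genes tested. At an adjusted p under 0.05 and any fold change, 0 passed in DESeq2, beside 3.83% higher and 2.84% lower. SOX7 had 16.6, 18.8 and 14.3 CPM after injury alone and 14.2, 8.33 and 13.9 CPM with the seed. These groups did not overlap, but FNI replicate 3 and FNI+I-125 replicate 1 were apart by little, and the log2 fold change of -0.45 had a 95% interval from -1.07 to 0.17. ERG had 56.0, 55.6 and 34.8 CPM against 41.3, 36.1 and 33.7 CPM, a log2 fold change of -0.40 (standard error 0.22). FLI1, which leukocytes and platelets also express, stood at -0.06, SOX17 at -0.09 and SOX18 at 0.01 on the log2 scale. The median of the 5 log2 fold changes was -0.09, or -0.46 without FNI+I-125 replicate 1. SOX17 ran from 3.63 to 10.4 CPM within the FNI group alone. The sign of SOX18 turned with library size only, upper-quartile normalization, limma-voom and DESeq2.

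The receptors and ligands of vessel growth separated into genes that were lower and genes that overlapped. FLT1, the VEGF receptor that limits signaling, had 104, 92.8 and 103 CPM after injury alone and 81.2, 73.7 and 71.3 CPM with the seed. Both groups were tight, and the log2 fold change was -0.41 with the smallest standard error of the set, 0.11 (95% interval -0.68 to -0.13). KDR, the main signaling receptor for VEGF in blood vessels, had 40.6, 58.0 and 44.5 CPM against 80.9, 42.3 and 44.7 CPM. FNI+I-125 replicate 1 was high, and the other seed libraries lay within the FNI range. Its log2 fold change was 0.23 (95% interval -0.49 to 0.96), or -0.13 without FNI+I-125 replicate 1.

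In the angiopoietin system, the receptor and the stabilizing ligand were both lower without overlap. TEK had 77.1, 74.5 and 111 CPM after injury alone and 69.1, 53.6 and 56.2 CPM with the seed, with a log2 fold change of -0.56 (standard error 0.20). ANGPT1, which mural and stromal cells supply to endothelium, had 11.9, 8.68 and 13.6 CPM against 6.53, 5.78 and 7.56 CPM. Every seed library lay below the lowest FNI library, with a log2 fold change of -0.78 (standard error 0.24, 95% interval -1.37 to -0.19). ANGPT2, which endothelium releases when vessels are remodeled, had 35.9, 41.3 and 28.9 CPM against 42.6, 33.1 and 24.8 CPM. Its groups overlapped, and the log2 fold change was -0.08 (95% interval -0.67 to 0.51). The adjusted p in edgeR's quasi-likelihood test was 0.280 for FLT1 and ANGPT1, 0.281 for TEK and 0.880 for ANGPT2. APLNR, the apelin receptor of sprouting veins, ranged from 60.5 to 102.5 CPM after injury alone and from 65.9 to 113 CPM with the seed.

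The 3 tip cell and Notch genes all had negative log2 fold changes, and none of them reached an unadjusted p under 0.05 in edgeR's test. Over all genes tested, 9.23% were higher and 7.73% lower at this p. DLL4, the Notch ligand of tip and arterial cells, had 36.9, 24.9 and 22.7 CPM after injury alone and 26.1, 17.2 and 12.8 CPM with the seed. FNI+I-125 replicate 1 lay above 2 of the FNI libraries, and the log2 fold change was -0.59 (standard error 0.32) with all libraries and -0.91 without that library. NOTCH4, the Notch receptor of endothelium, had 33.8, 31.8 and 39.8 CPM against 38.2, 18.8 and 22.3 CPM, a log2 fold change of -0.41 (standard error 0.29). Here too FNI+I-125 replicate 1 lay within the FNI range and the other seed libraries lay below it. JAG1, a Notch ligand that many cell types express, stood at -0.33 (standard error 0.26), and at -0.04 without FNI replicate 3.

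The barrier genes had the lowest median log2 fold change of the role groups. CLDN5, the main claudin of endothelial tight junctions, had 72.7, 77.2 and 121 CPM after injury alone and 50.6, 46.9 and 28.4 CPM with the seed. All seed libraries were below all FNI libraries. The means were 90.3 ± 26.6 and 42.0 ± 11.9 CPM (SD, n = 3 each), and the log2 fold change was -1.11 (standard error 0.30, 95% interval -1.84 to -0.37). ABCB1, the efflux pump P-glycoprotein, had 99.9, 86.3 and 173 CPM against 55.0, 72.0 and 52.5 CPM. Again the groups did not overlap, with means of 119.9 ± 46.8 CPM and 59.9 ± 10.6 CPM (SD, n = 3 each). The log2 fold change of ABCB1 was -1.002 (standard error 0.30, 95% interval -1.73 to -0.27). In edgeR's quasi-likelihood test the adjusted p was 0.280 for both genes.

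FNI replicate 3, the library with the most Schwann cell transcripts, was the highest library for all 3 barrier genes. MFSD2A, a lipid transporter of barrier endothelium, had 5.32, 5.10 and 46.5 CPM after injury alone and 3.07, 7.72 and 4.40 CPM with the seed. One FNI library was far above all others, and the rest overlapped. The log2 fold change of MFSD2A was -1.90 (standard error 0.98) with this library and -0.06 without it. Without FNI replicate 3, those of CLDN5 and ABCB1 were -0.85 and -0.65. Schwann cells and other cells of the nerve sheath can express claudins and transporters, and the 10 Schwann cell markers, all with negative log2 fold changes, had a median of -1.81. Their part in the barrier result was not tested.

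SELE and SELP, the selectins that catch leukocytes on activated endothelium, had the highest log2 fold changes of the set. SELE had 5.62, 6.92 and 1.53 CPM after injury alone and 41.5, 15.1 and 20.8 CPM with the seed. The lowest seed library was above the highest FNI library. Its log2 fold change was 2.46 (standard error 0.65, 95% interval 0.86 to 4.05). The adjusted p was 0.280 in edgeR's quasi-likelihood test and 0.0076 in DESeq2's Wald test. Leaving out single libraries gave values for SELE from 1.94, without FNI+I-125 replicate 1, to 2.85, without FNI replicate 2. Without both FNI replicate 3 and FNI+I-125 replicate 1 it was 1.501.

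SELP, which platelets also store, had 46.1, 36.9 and 16.2 CPM after injury alone and 134, 32.8 and 43.5 CPM with the seed. FNI+I-125 replicate 1 stood alone, and the others overlapped. The log2 fold change of 1.08 (standard error 0.64) became 0.21 without that library. Of the 11 platelet genes listed, 4 passed the filter on low counts, with a summed level of 14.9 to 22.0 CPM in the FNI libraries and 15.99 to 34.7 CPM in the FNI+I-125 libraries. The platelet receptor gene GP1BA had 0 counts in all FNI libraries and at most 1 in a seed library. These 4 genes were 2 with a positive and 2 with a negative log2 fold change, with a median of -0.04. PPBP, a platelet chemokine, had 0.234, 0.441 and 0.118 CPM against 12.4, 2.49 and 4.16 CPM. It was the one platelet gene with a higher level without overlap, beside 14.8% of all genes tested. ITGA2B stood at -0.10 (standard error 0.36) and TUBB1 at -0.17 (standard error 0.61), and their groups overlapped. The part of platelets and leukocytes in the selectin values was not tested.

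The 5 lymphatic genes did not separate the groups. PROX1 had 8.01, 8.12 and 4.49 CPM after injury alone and 26.2, 8.09 and 6.10 CPM with the seed. Only FNI+I-125 replicate 1 lay above the FNI range, and the log2 fold change of 0.97 (standard error 0.61) was 0.05 without it. MMRN1, a glycoprotein of lymphatic endothelium and platelets, had 45.3, 53.0 and 36.0 CPM against 91.1, 56.5 and 42.2 CPM, a log2 fold change of 0.50 (standard error 0.31). VEGFC, the growth factor for lymphatic vessels, stood at 0.43 (95% interval -0.41 to 1.26), and FLT4, its receptor, at -0.03 (-0.81 to 0.74). LYVE1, the hyaluronan receptor of lymphatic endothelium that some tissue macrophages share, stood at 0.33 (-0.70 to 1.36). For each of these 5 genes FNI+I-125 replicate 1 was the highest of the 6 libraries and FNI replicate 3 or FNI+I-125 replicate 3 was the lowest.

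The role groups were set side by side by the mean log2(CPM + 1) of their genes in each library, as a description without a test. Pan-endothelial genes stood at 7.42, 7.11 and 7.26 after injury alone and 7.20, 7.01 and 6.76 with the seed, with a median log2 fold change of -0.23. Barrier genes stood at 5.17, 5.12 and 6.65 against 4.51, 4.97 and 4.35, with a median of -1.11. The activated genes stood at 4.14, 4.12 and 2.72 against 6.24, 4.55 and 4.96, with a median of 1.77. On these means the barrier group was lower and the selectins higher in every seed library than after injury alone, whereas pan-endothelial genes overlapped. Single genes of both groups did overlap, namely MFSD2A and SELP. The tip or Notch genes stood at 5.77, 5.62 and 5.91 against 5.61, 5.18 and 5.17, with a median of -0.41, and their means did not overlap by a narrow margin. Lymphatic genes stood at 5.05, 5.03 and 4.36 against 5.85, 5.02 and 4.60, with a median of 0.43. The medians were -0.09 for the transcription factors and -0.24 for the VEGF, angiopoietin and apelin genes. Over the 35 genes the median was -0.16, beside 0.01 over all genes tested, with 12 positive and 23 negative values.

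**Figure D4:**
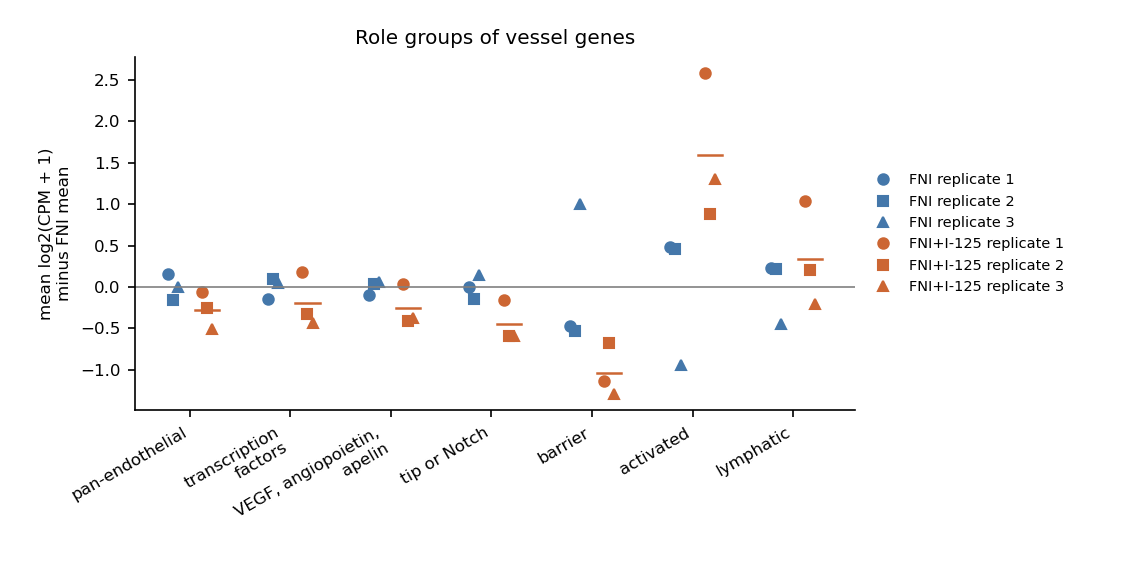
Mean log2(CPM + 1) of the genes of each role group in each library, minus the mean of the FNI libraries, with orange bars for the mean of the FNI+I-125 libraries. The 3 FNI+I-125 libraries lie below all FNI libraries for the barrier genes and, by a narrow margin, the tip or Notch genes, and above them for the activated genes, and the groups overlap for the pan-endothelial and lymphatic genes.

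Since the amount of endothelial RNA may differ between tissue pieces, each gene was also expressed as its log2(CPM + 1) minus the mean of the 11 pan-endothelial genes in the same library. This shows unequal change between genes, not which of them changed. On this scale SELE was 2.55 higher in the FNI+I-125 group, CLDN5 was 0.82 lower (difference -0.82) and ABCB1 was 0.66 lower (difference -0.66), each without overlap between the groups. MMRN1, at 0.71, and ICAM2, at 0.38, did not overlap either. The share of all genes without overlap was not determined on this scale. FLT1 and TEK, with differences of -0.13 and -0.26, overlapped on this scale, as did ANGPT1 at -0.41 and SOX7 at -0.17. The lower values of these 4 genes thus did not separate the groups once set against the pan-endothelial genes. For ANGPT1, which mural and stromal cells supply, the pan-endothelial mean does not measure the amount of its source cells. TIE1, ESAM and ICAM2 are part of the reference, and the differences of -0.28 for TIE1 and -0.27 for ESAM did not overlap. With PECAM1, CDH5 and TIE1 alone as the reference, TIE1 stood at -0.14, ESAM at -0.13 and FLT1 at 0.0059, while CLDN5 stood at -0.68, ABCB1 at -0.53 and SELE at 2.68.

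Ratios of counts within a library do not depend on normalization. The 5 pairs were chosen after the values had been seen and are given without a test. The ratio of CLDN5, a gene of sealed vessels, to PLVAP, a gene of fenestrated vessels, was 0.304, 0.463 and 0.745 after injury alone and 0.178, 0.279 and 0.163 with the seed. The lowest FNI value was above the highest seed value by a small margin. The ratio of SELE to PECAM1 was 0.0132, 0.0190 and 0.00417 against 0.0725, 0.0571 and 0.0932, so that the groups were far apart and FNI+I-125 replicate 1 no longer stood out. The ratio of ANGPT2 to ANGPT1 was 3.02, 4.75 and 2.12 against 6.53, 5.73 and 3.28, and that of KDR to FLT1 was 0.389, 0.626 and 0.430 against 0.996, 0.574 and 0.627. Both of the latter ratios overlapped between the groups. The ratio of ANGPT1 to TEK was 0.154, 0.117 and 0.122 against 0.0945, 0.108 and 0.135 and overlapped too.

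**Figure D5:**
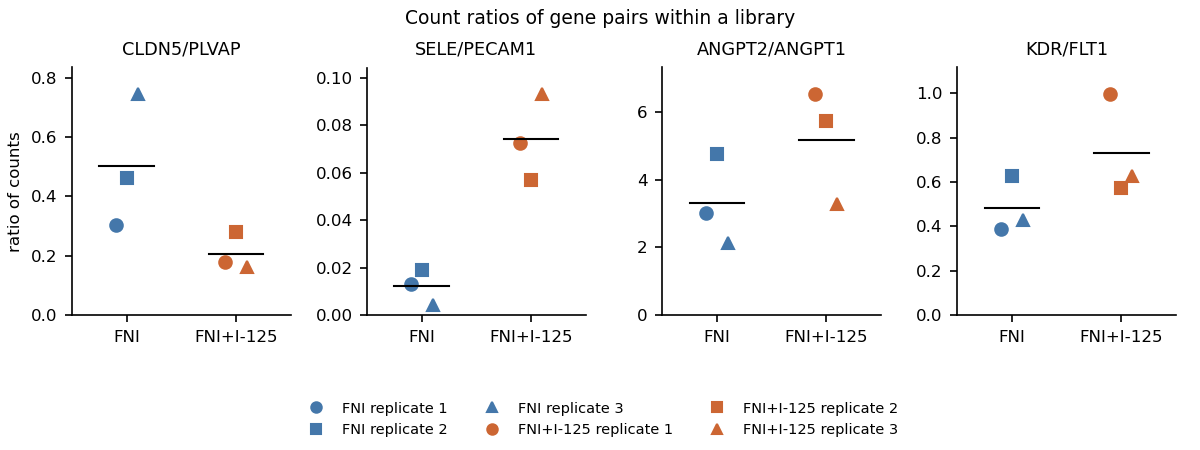
Ratio of the counts of 2 genes in each library for CLDN5 over PLVAP, SELE over PECAM1, ANGPT2 over ANGPT1 and KDR over FLT1, with black bars for the group means and axes that start at 0. The groups are apart in the first and second panels, with means of 0.504 against 0.207 for CLDN5 over PLVAP, and overlap in the others.

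Other endothelial genes, from a list of 24 that are not in the set, gave a similar picture. Of the 23 tested, 20 had a negative log2 fold change, with a median of -0.36. At an unadjusted p under 0.05 in edgeR's test, 9 were lower and 0 were higher, beside 7.73% and 9.23% over all genes tested. Without overlap, 10 were lower, beside the background of 12.3% for lower genes. ROBO4, an endothelial receptor that stabilizes vessels, had 102.1, 93.3 and 141 CPM after injury alone and 59.0, 67.6 and 41.5 CPM with the seed. Its log2 fold change was -1.0004 (standard error 0.24). SHE stood at -0.74 (standard error 0.20). None of the 23 was called at the adjusted p in edgeR's test. Of the 10 Notch pathway genes tested outside the set, 6 had a negative and 4 a positive log2 fold change. Their median was -0.22. At an unadjusted p under 0.05, 1 was lower, the ligand DLL1 at -0.58 (standard error 0.19), and 0 were higher. The shares over all genes tested were 7.73% and 9.23%. HES1, a Notch target, stood at -0.49 (standard error 0.22) and the receptor NOTCH3 at -0.31 (standard error 0.16).

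Of 19 other VEGF, tip cell and angiogenic genes tested, 12 had a positive and 7 a negative log2 fold change. Their median was 0.31. At an unadjusted p under 0.05, 4 were higher and 0 were lower in edgeR's test. Over all genes tested these shares were 9.23% and 7.73%. NRP2, a co-receptor for VEGFC and semaphorins that also occurs outside lymphatic vessels, had 134, 168 and 139 CPM after injury alone and 343, 453 and 347 CPM with the seed. The groups lay far apart, with a log2 fold change of 1.37 (standard error 0.18) and an adjusted p of 0.280 in edgeR's quasi-likelihood test. UNC5B, a netrin receptor, stood at 1.06 (standard error 0.31) and CXCR4, the chemokine receptor of tip cells and leukocytes, at 1.54 (standard error 0.49), both higher without overlap. For CXCR4, the leukocyte markers moved in the same direction, with a median log2 fold change of 1.71, and their part in its value was not tested.

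Of 19 other junction and barrier genes tested, 17 had a negative log2 fold change, with a median of -0.99. Their summed level was 2025, 1896 and 4661 CPM after injury alone and 1389, 1535 and 1567 CPM with the seed. FNI replicate 3 was thus far above every other library in this sum. At an unadjusted p under 0.05, 6 were lower and 1 was higher in edgeR's test, beside 7.73% and 9.23% over all genes tested. Without overlap, 9 were lower, beside 12.3% of all genes tested. ABCG2, an efflux pump of barrier endothelium, had 92.96, 92.5 and 185 CPM after injury alone and 34.7, 57.1 and 45.7 CPM with the seed, a log2 fold change of -1.43 (standard error 0.35). As with ABCB1, FNI replicate 3 was the highest library. CLDN11, a claudin of nerve sheaths, stood at -1.49 (standard error 0.44). LEF1, a transcription factor of the Wnt pathway that lymphocytes also use, was the gene with a higher level, at 1.44 (standard error 0.33). Schwann cells and perineurial cells express many of these genes too, the Schwann cell markers had negative log2 fold changes as well, and their part was not tested.

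Among 15 other genes of vessel activation and leukocyte adhesion, 5 were higher and 1 was lower at an unadjusted p under 0.05 in edgeR's test. The shares over all genes tested were 9.23% and 7.73%. Of the 15 genes, 11 had a positive and 4 a negative log2 fold change, with a median of 0.48. IRF1, an interferon-responsive factor, stood at 1.25 (standard error 0.35) and SELPLG, the selectin ligand carried by leukocytes, at 2.31 (standard error 0.65). The adhesion genes ICAM1, at 0.48 (standard error 0.58), and VCAM1, at -0.11 (standard error 0.16), overlapped between the groups. ACKR1, the chemokine-binding receptor of venules, had 192, 159 and 369 CPM after injury alone and 116, 132 and 119 CPM with the seed. It was lower without overlap, at a log2 fold change of -0.97 (standard error 0.33), and thus differed in the direction opposite to SELE. Of 7 other lymphatic genes tested, 5 had a positive and 2 a negative log2 fold change, with a median of 0.58. At an unadjusted p under 0.05 in edgeR's test, 1 was higher and 1 was lower, beside 9.23% and 7.73% over all genes tested. PDPN was the higher one, at 1.35 (standard error 0.54). NR2F2, a factor of venous and lymphatic identity, was the lower one, at -0.83 (standard error 0.27). PDPN had 164 CPM in FNI+I-125 replicate 1 and 50.6 and 45.7 CPM in the other seed libraries. ITGA9, an integrin of lymphatic valves, stood at 0.58 (standard error 0.35).

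Mural cells are the pericytes and smooth muscle cells around vessels. Of their 11 markers tested, 6 had a positive and 5 a negative log2 fold change, with a median of 0.14. Their summed level ran from 3692 to 4301 CPM in the FNI libraries and from 3281 to 5665 CPM in the FNI+I-125 libraries. DES, which skeletal muscle shares, was the one at an unadjusted p under 0.05, and it was high in the 2 seed libraries with muscle transcripts. NOTCH3, described above, was the one mural marker lower without overlap. The shares over all genes tested were 9.23% higher at an unadjusted p under 0.05 and 12.3% lower without overlap. KCNJ8, a potassium channel of pericytes, stood at -0.35 (standard error 0.21). The difference between mural and endothelial genes was not tested.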

How the data were processed

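Poly(A) RNA of injured rabbit facial nerve had been sequenced in 6 libraries, 3 of the FNI and 3 of the FNI+I-125 group. The deposited values are raw counts per gene, 1 file per library, which the authors made from stranded, oligo dT selected, paired-end libraries. HISAT2 and the build OryCun2.0 are named in the submitters' processing notes. The counting program, its strand setting and the annotation are not given in the sources used here, so reads of overlapping genes cannot be told apart. Symbols for 548 of 2992 LOC identifiers came from RefSeq's table of assembly mOryCun1.1. Since that is another build, no coordinates are given, and no sequences were used here. The methods give 3 rabbits per group, but the labels do not tie libraries to animals, so p-values measure the spread between these libraries.

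The software was edgeR 4.0.16, with DESeq2 1.42.0 and limma 3.58.1 for alternatives, under R 4.3.3. The comparison was fitted over all genes with edgeR's quasi-likelihood test (glmQLFit defaults, TMM factors from 0.923 to 1.06, filterByExpr with a minimum count of 10, 14003 genes kept), two-sided, and p-values were adjusted over these genes after Benjamini-Hochberg. As in the study, a call needed a log2 fold change of at least 1.5 in size besides its adjusted p under 0.05. CPM are counts per 1e6 of TMM-scaled library sizes, and means over role groups and the exact permutation tests (10 splits, smallest p 0.1) use log2(CPM + 1). Intervals at 95% and standard errors come from the edgeR fit. The scripts were first tested on simulated data.

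The genes, their role groups and the other lists were chosen with earlier results of these data known, so no list was tested. All genes of the set are accounted for, and each other list is represented by its 3 smallest p-values at most, beside markers that bear on a value. The alternatives were DESeq2, limma-voom, glmQLFit with legacy = FALSE, upper-quartile factors, totals without scaling factors, totals that leave out muscle and gland genes, testing without the low-count filter or with a stricter one (10 counts or more in each library), an unadjusted p, a log2 fold change of 1, a replicate block, PECAM1, CDH5 and TIE1 as endothelial reference, and each library left out. Leaving out FNI replicate 3 and FNI+I-125 replicate 1 together was chosen after seeing the data.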

Additional observations from a re-analysis of the deposited data

How the results depend on the processing

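Of 560 pairs of a gene and an alternative, 45 had the opposite sign, and 17 of the 35 genes never did. With DESeq2, 1 gene of the set was called higher (SELE, log2 fold change 2.45), beside 236 higher and 163 lower of all genes. With an unadjusted p in the call, these were 1, 388 and 306. Leaving out FNI replicate 3 and FNI+I-125 replicate 1 together, chosen after seeing the data, gave 20 genes of the set lower without overlap, beside 23.2% of all genes, and 694 of all genes lower at an unadjusted p. Medians then were -0.49 (pan-endothelial), -0.44 (VEGF, angiopoietin and apelin), -0.69 (tip or Notch), 0.68 (activated) and -0.20 (lymphatic), and signs turned for ENG (-0.30), PLVAP (-0.27), SOX18 (-0.23), KDR (-0.20), APLNR (-0.22), JAG1 (0.0613), MFSD2A (0.21), SELP (-0.14), PROX1 (-0.20), LYVE1 (-0.27), VEGFC (-0.15) and MMRN1 (-0.00838). ENG was -0.0177 with library size only, -0.0305 with upper-quartile normalization, -0.00122 without the filter and -0.000540 with the stricter one. In the same order SOX18 was -0.0293, -0.0295, -0.00160 and -0.00241, and it was -0.0493 in limma-voom and -0.000133 in DESeq2. The cause was not tested.

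Leaving out each library gave 1 to 2 genes of the set higher and 4 to 10 lower at an unadjusted p, and 1 to 3 higher and 8 to 14 lower without overlap. The background at an unadjusted p ran from 6% to 8.19% higher and from 3.71% to 7.51% lower. Without overlap it ran from 16.5% to 20.8% higher and from 16.1% to 19.8% lower, so counts from different settings are not directly comparable. Over all genes, 0 to 38 were called higher and 0 to 2 lower, both maxima without FNI+I-125 replicate 3, and 860 to 1169 were higher and 532 to 1081 lower at an unadjusted p. The median ran from -0.46 to 0.0924 for transcription factors, -0.77 to -0.33 for tip or Notch, -0.37 to -0.0526 for pan-endothelial, -0.38 to -0.15 for VEGF, angiopoietin and apelin, -1.26 to -0.65 for barrier (the latter without FNI replicate 3), and 1.07 to 2.05 for activated and 0.0462 to 0.58 for lymphatic genes (both lowest without FNI+I-125 replicate 1). Signs turned for PECAM1 (-0.66 to 0.11), VWF (-0.37 to 0.0065), ENG (-0.19 to 0.14), PLVAP (-0.15 to 0.34), FLI1 (-0.32 to 0.10), SOX17 (-0.46 to 0.35), SOX18 (-0.27 to 0.24), KDR (-0.13 to 0.39), ANGPT2 (-0.29 to 0.0897), APLNR (-0.20 to 0.25) and FLT4 (-0.40 to 0.21).

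Deviations from the group means gave no sign that replicate numbers pair the libraries. Their correlations were 0.0475, -0.23 and -0.19 for same-numbered libraries and from -0.31 to 0.35 for the others. So few libraries of differing tissue composition cannot exclude a shared batch. With the replicate block, 2 genes of the set were higher (LYVE1 and SELE) and 6 lower at an unadjusted p, and SOX18 was -0.0402. The background with this block was 9.03% higher and 6.83% lower.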

Other observations

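Lists of cell types around the vessels had values that belong to no vessel comparison. Of 8 fibroblast genes, 6 had a positive log2 fold change, with a median of 0.27 and summed levels from 69225 to 138356 CPM in the FNI libraries and 98387 to 189676 CPM in the FNI+I-125 libraries. PI16, a gene of adventitial fibroblasts around vessels, had 152, 212 and 105 CPM against 76.3, 101.9 and 105 CPM, with a log2 fold change of -0.73 (standard error 0.28). DCN stood at -0.42 (standard error 0.22) and LUM at 0.53 (standard error 0.45). The 4 adipocyte genes tested were all negative, with a median of -1.55, and ADIPOQ, the adipocyte hormone adiponectin, had 1123, 1121 and 1838 CPM against 754, 771 and 780.3 CPM. LEP stood at -2.38 (standard error 1.06) and FABP4, a fatty acid carrier of adipocytes that capillary endothelium also makes, at -1.35 (standard error 0.63).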
